A study of Mus musculus with 8 samples.

Results

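Expression of 10 genes of cell adhesion and epithelial-mesenchymal transition (EMT) was measured in mouse primordial germ cell-like cells (PGCLCs) and embryonic stem cells (ESCs) with and without Tfap2c, the gene of the transcription factor AP-2gamma. The genes are Cdh1 (E-cadherin), Epcam, Cdh2 (N-cadherin), Vim (vimentin), Snai2, Zeb1, Zeb2, Twist1, Ncam1 and Jam2. They were chosen by name, with earlier results of these data known. Every probe set of the Affymetrix mouse expression array that the platform annotation assigns to 1 of them and to no other gene was taken. This gave 32 probe sets out of 34945 that name a single gene, and 10 genes out of 18193. Cdh1 and Twist1 had 1 probe set each, Epcam, Cdh2 and Snai2 had 2 each, Vim had 3, Zeb1 had 4, Zeb2 and Jam2 had 5 each, and Ncam1 had 7.

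The 8 samples formed 4 groups of 2, namely Tfap2c-/- PGCLCs, control PGCLCs, Tfap2c-/- ESCs and control ESCs. The controls were the parental Tfap2c flox/flox ESC lines, in which both alleles are floxed but intact. The Tfap2c-/- lines were derived from these by transient transfection of a Cre plasmid driven by the pgk promoter. All 4 groups carried the Blimp1mVenus reporter, and the study worked with 2 parental lines. PGCLCs were obtained by turning ESCs into epiblast-like cells for 2 days and then culturing them with BMP4, BMP8b, SCF, LIF and EGF, and only cells sorted for Blimp1mVenus fluorescence were used. The paper names both lines, each with and without Tfap2c, as the source of the ESC and PGCLC arrays. The labels number the samples of a group 1 and 2 but do not tie these numbers to the lines. The main fit therefore did not pair a knockout line with its parent, and the p-values below measure the spread between these samples. The comparisons ask what the loss of Tfap2c changes in PGCLCs and in ESCs, and how the PGCLCs differ from the ESCs they were made from.

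Values are on the log2 scale, where 1 unit is a 2-fold difference, and the arrays had medians of 3.47 to 3.55. Tfap2c itself was 8.52 and 8.85 in Tfap2c-/- PGCLCs against 9.84 and 10.29 in control PGCLCs. In Tfap2c-/- ESCs it was 7.28 and 6.47, against 7.88 and 9.14 in control ESCs. It was lower in both knockout groups without passing the test, and whether its probe sets lie in the deleted part is not given. The 6 measured PGC markers averaged 7.49 and 7.58 in Tfap2c-/- PGCLCs, 9.02 and 9.34 in control PGCLCs, and 6.76 to 7.61 in the ESCs. The 7 ESC markers averaged 9.46 to 10.23 in the PGCLCs and 10.36 to 10.54 in the ESCs. The array of control PGCLC sample 2 stood apart. Its poly-A controls averaged 7.91, Tfap2c-/- PGCLC samples 1 and 2 had 7.44 and 6.72, and the other 5 arrays had 5.42 to 5.91. The excess of the 3′ over the 5′ Gapdh probe set was 0.95 on that array and 0.31 to 0.52 on the others. These are bulk RNA samples, in which fewer cells of a type and less RNA per cell cannot be told apart.

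E-cadherin joins epithelial cells at adherens junctions, where its cytoplasmic tail is held to actin by catenins. During EMT, E-cadherin gives way to N-cadherin and vimentin, and the zinc finger factors Snai2, Zeb1 and Zeb2 and the bHLH factor Twist1 act as repressors of Cdh1, largely through E-box sequences in its promoter. Mouse primordial germ cells arise from the epithelial epiblast, express E-cadherin for part of their life and migrate to the gonads.

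Cdh1 was higher in Tfap2c-/- PGCLCs than in control PGCLCs, and was the only gene of the 10 called in this comparison. On its probe set 1448261_at it was 10.12 and 10.34 in Tfap2c-/- PGCLCs and 9.42 and 9.54 in control PGCLCs. In Tfap2c-/- ESCs it was 10.42 and 10.65, and in control ESCs 10.51 and 10.44. Both Tfap2c-/- PGCLC samples thus lay above both controls and below all 4 ESC samples. The group means were 10.23 ± 0.16 in Tfap2c-/- PGCLCs, 9.48 ± 0.08 in control PGCLCs, 10.53 ± 0.16 in Tfap2c-/- ESCs and 10.47 ± 0.05 in control ESCs (SD, n = 2 each). The log2 difference between Tfap2c-/- and control PGCLCs was 0.75 (SE 0.12, 95% confidence interval 0.47 to 1.04, adjusted p = 0.0223, limma). A gene was called at an adjusted p under 0.05, and in this comparison 3.09% of all 18193 genes were called, 1.29% as higher and 1.8% as lower. Samples of the same number gave differences of 0.70 and 0.80. The call was lost when any 1 of the 4 PGCLC arrays was left out, with differences of 0.64 to 0.86 and adjusted p from 0.0503 to 0.155, and when only the PGCLC arrays were fitted (adjusted p = 0.0723). Without control PGCLC sample 2, the array that stood apart, the difference was 0.81 (adjusted p = 0.124).

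**Figure D1:**
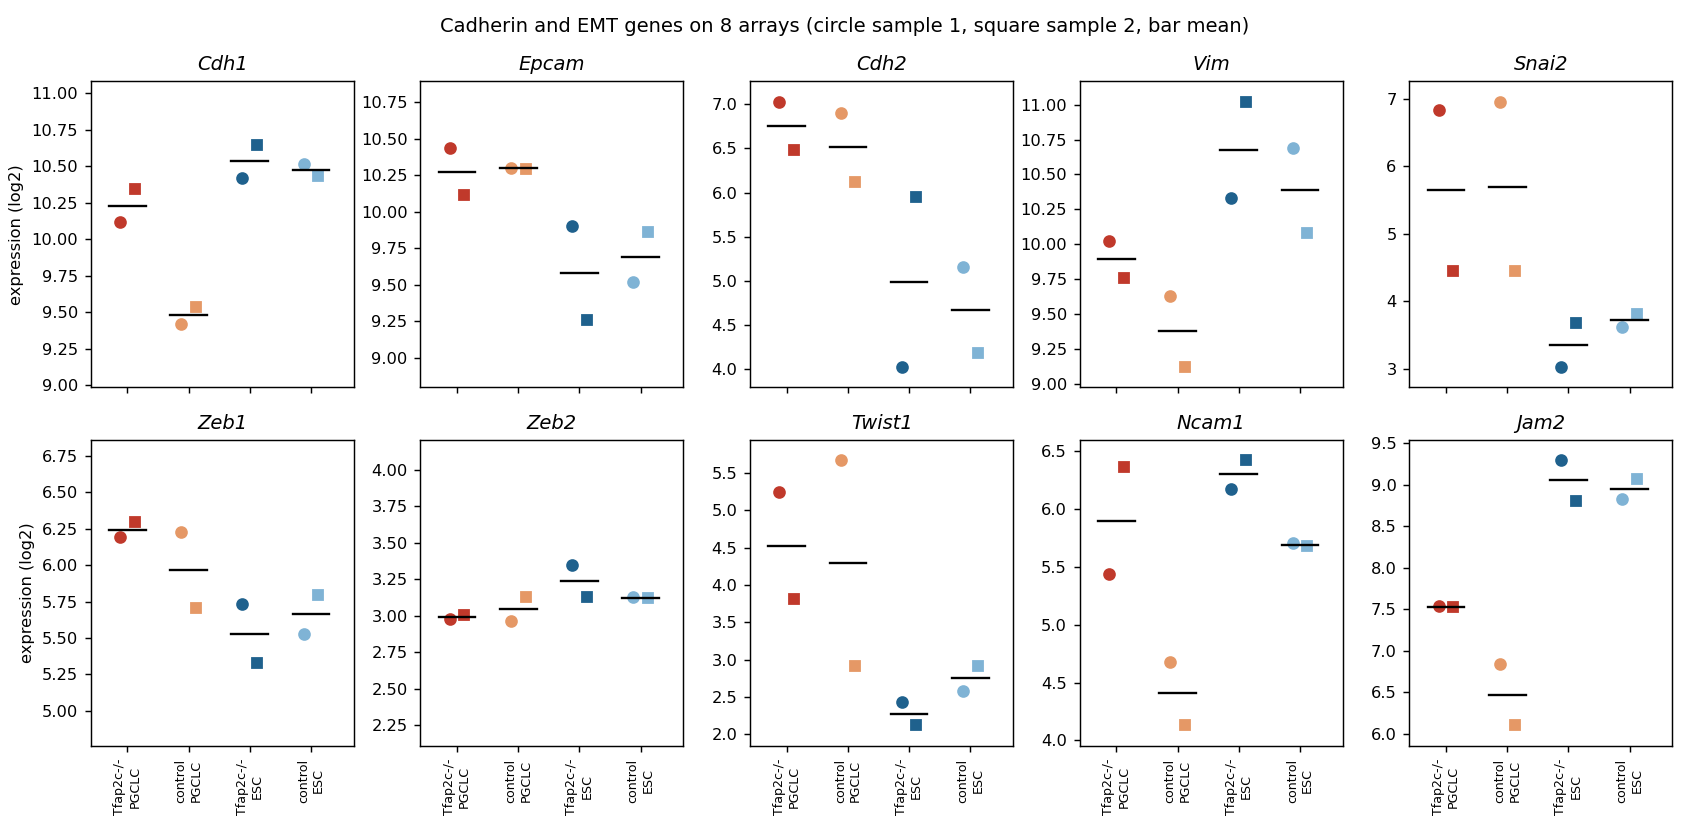
Expression (log2) of the 10 genes on the 8 arrays, each gene on its probe set with the highest mean and on its own vertical scale. Red stands for Tfap2c-/- PGCLCs, orange for control PGCLCs, dark blue for Tfap2c-/- ESCs and light blue for control ESCs, circles are samples numbered 1, squares samples numbered 2 and bars group means. Cdh1, Ncam1 and Jam2 are lowest in control PGCLCs, while Snai2 and Twist1 differ more between samples 1 and 2 of the PGCLC groups than between the genotypes.

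In ESCs, Cdh1 showed a knockout difference of 0.06 (95% confidence interval -0.23 to 0.34), and the samples of the genotypes overlapped. The difference between the knockout effects in PGCLCs and ESCs was 0.69 (SE 0.17) and did not pass the test (adjusted p = 0.257, limma), so the effects in the cell types were not shown to differ. Control PGCLCs had less Cdh1 than control ESCs (difference -0.996, SE 0.12, adjusted p = 0.00497, limma). This difference was called under all 17 settings tried and stayed between -1.06 and -0.94 when single arrays were left out. In this comparison 8.37% of all genes were called, 3.72% as lower. Tfap2c-/- PGCLCs differed from Tfap2c-/- ESCs by -0.30 (95% confidence interval -0.59 to -0.02, adjusted p = 0.245, limma). The knockout comparison in PGCLCs and that between the control cell types share the 2 control PGCLC samples, so they are not independent views of Cdh1.

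Epcam, which encodes an adhesion molecule of epithelia and of ESCs, was at about the same level in both PGCLC genotypes. On its brighter probe set 1416579_a_at it was 10.44 and 10.11 in Tfap2c-/- PGCLCs and 10.30 and 10.29 in control PGCLCs. Tfap2c-/- ESCs had 9.90 and 9.25, against 9.52 and 9.86 in control ESCs. The 4 PGCLC samples lay above the 4 ESC samples. The knockout difference in PGCLCs was -0.02 (95% confidence interval -0.54 to 0.49). Control PGCLCs exceeded control ESCs by 0.61 (SE 0.22, adjusted p = 0.147, limma) and Tfap2c-/- PGCLCs exceeded Tfap2c-/- ESCs by 0.70 (SE 0.22, adjusted p = 0.163, limma), neither of which passed. On the probe set 1447899_x_at the values were 6.51 to 7.19 over all 8 arrays, and the control cell types overlapped. There the Tfap2c-/- PGCLC samples, at 7.19 and 6.88, lay above the control PGCLC samples, at 6.79 and 6.86. They also lay above the Tfap2c-/- ESC samples, at 6.76 and 6.51. The differences of 0.21 and 0.40 did not pass.

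For the 250 bases before the gene start, the RefSeq table (build GRCm38.p6) held windows of Epcam, Vim, Twist1 and Zeb2. The motifs searched on both strands were the E-box CACCTG or CAGGTG, the form bound by the Snai and Zeb factors, and the AP-2 motif GCCNNNGGC, bound by factors of the Tfap2 family. Of 32851 windows of this length in the table, 17.2% held the E-box and 13.7% the AP-2 motif. The Epcam window is shown for its 2 E-boxes, which start 187 and 19 bases before the gene start, and the Vim window for its AP-2 motif, which starts 20 bases before it. Motifs are in capitals.
Epcam, chr17:87635729-87635978, plus strand: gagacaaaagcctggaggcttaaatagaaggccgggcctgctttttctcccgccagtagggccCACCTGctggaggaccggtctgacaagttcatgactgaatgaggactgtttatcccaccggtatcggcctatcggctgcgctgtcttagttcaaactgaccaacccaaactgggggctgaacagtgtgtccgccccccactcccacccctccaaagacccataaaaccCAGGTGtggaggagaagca
Vim, chr2:13574061-13574310, plus strand: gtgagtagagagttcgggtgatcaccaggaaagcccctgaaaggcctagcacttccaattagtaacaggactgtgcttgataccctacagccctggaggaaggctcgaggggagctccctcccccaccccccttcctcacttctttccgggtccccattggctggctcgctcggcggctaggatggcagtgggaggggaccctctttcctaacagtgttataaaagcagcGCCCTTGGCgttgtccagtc
The Epcam window held no AP-2 motif, the Vim window no E-box, and the Twist1 window neither. Of the 4 Zeb2 windows, 2 that overlap shared an AP-2 motif, and none held an E-box. A match of letters is a description of the window and was not tested as a binding site.

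The mesenchymal genes Cdh2 and Vim did not pass the test between genotypes, and they ran in opposite directions between cell types. Cdh2, whose N-cadherin joins mesenchymal and neural cells, was 7.03 and 6.48 in Tfap2c-/- PGCLCs and 6.90 and 6.12 in control PGCLCs on its brighter probe set 1418815_at. It was 4.03 and 5.95 in Tfap2c-/- ESCs and 5.16 and 4.18 in control ESCs. All PGCLC samples lay above all ESC samples, the closest being control PGCLC sample 2 and Tfap2c-/- ESC sample 2. The PGCLC genotypes overlapped, with a knockout difference of 0.24 (95% confidence interval -1.20 to 1.68). Control PGCLCs exceeded control ESCs by 1.84 (SE 0.62, adjusted p = 0.122, limma) and Tfap2c-/- PGCLCs exceeded Tfap2c-/- ESCs by 1.77 (SE 0.62, adjusted p = 0.192, limma). The 2 Tfap2c-/- ESC samples differed by 1.92, and without the first or the second of them the comparison of the controls passed at an adjusted p of 0.0399 or 0.0406. On the probe set 1449244_at, Tfap2c-/- PGCLCs had 5.99 and 5.06, control PGCLCs 5.97 and 5.02, Tfap2c-/- ESCs 3.61 and 5.06 and control ESCs 4.78 and 3.01. There Tfap2c-/- ESC sample 2 overlapped the PGCLC samples numbered 2.

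Vim, the gene of the intermediate filament protein of mesenchymal cells, had lower values in PGCLCs than in ESCs. On its brightest probe set 1438118_x_at it was 10.02 and 9.76 in Tfap2c-/- PGCLCs, 9.63 and 9.12 in control PGCLCs, 10.33 and 11.02 in Tfap2c-/- ESCs and 10.69 and 10.08 in control ESCs. The 4 PGCLC samples lay below the 4 ESC samples, and both Tfap2c-/- PGCLC samples lay above both control PGCLC samples. The difference between control PGCLCs and control ESCs was -1.01 on this probe set (SE 0.29, adjusted p = 0.0763, limma), -1.35 on 1450641_at (SE 0.32, adjusted p = 0.0494 over all probe sets, limma) and -1.05 on 1456292_a_at (SE 0.31, adjusted p = 0.0884). Only 1450641_at passed, where 6.65% of all probe sets were called. The knockout difference in PGCLCs was 0.47 to 0.55 on the 3 probe sets, with an adjusted p of 0.469 on the brightest (limma). In ESCs it was 0.24 to 0.33, and the genotypes overlapped. On their brightest probe sets, the PGCLC samples thus lay above the ESC samples for Cdh2 and below them for Vim.

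The 4 EMT transcription factors gave no call in any comparison. Of all genes 3.09% were called between the PGCLC genotypes, 0% between the ESC genotypes and 0.148% for the difference of these effects. Between the control cell types it was 8.37%, and between the knockout cell types 2.32%. Snai2, a zinc finger repressor of Cdh1, was 6.84 and 4.45 in Tfap2c-/- PGCLCs and 6.96 and 4.44 in control PGCLCs on its brighter probe set 1447643_x_at, against 3.02 and 3.68 in Tfap2c-/- ESCs and 3.62 and 3.81 in control ESCs. In both PGCLC groups the sample numbered 1 was the higher, and the sample numbered 2 lay nearer to the ESCs. The gap between samples 1 and 2 was 2.38 in Tfap2c-/- PGCLCs and 2.52 in control PGCLCs, whereas the genotypes differed by -0.06 (95% confidence interval -2.19 to 2.07). Samples of the same number differed by -0.13 and 0.01 between the genotypes. On the dimmer probe set 1418673_at the PGCLC samples numbered 1 were also the higher in both genotypes. It gave 3.75 and 2.87 in Tfap2c-/- PGCLCs, 4.19 and 2.90 in control PGCLCs and 2.64 to 2.81 in the ESCs. Its values in the PGCLC samples numbered 2 and in the ESCs were below the median of every array.

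Twist1, a bHLH factor that drives mesenchymal gene expression, was 5.24 and 3.81 in Tfap2c-/- PGCLCs, 5.67 and 2.91 in control PGCLCs, 2.43 and 2.12 in Tfap2c-/- ESCs and 2.58 and 2.91 in control ESCs. Again the PGCLC samples numbered 1 were the highest. Control PGCLC sample 2 and control ESC sample 2 were both at 2.91. The genotypes of the PGCLCs differed by 0.23 (95% confidence interval -1.66 to 2.12). Without control PGCLC sample 1 this difference was 1.61, and without control PGCLC sample 2 it was -1.15, so its direction rested on which array was used. Tfap2c-/- PGCLCs exceeded Tfap2c-/- ESCs by 2.25 (SE 0.81, adjusted p = 0.202, limma), and control PGCLCs exceeded control ESCs by 1.55 (SE 0.81, adjusted p = 0.306, limma).

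Other mesenchymal genes also had higher values in the PGCLC samples numbered 1. The 19 measured mesenchymal genes, which include Vim and Cdh2, averaged 6.18 and 5.34 in Tfap2c-/- PGCLCs, 6.05 and 5.03 in control PGCLCs and 4.60 to 4.85 in the ESCs. The 7 fibroblast markers averaged 3.57 and 3.01 in Tfap2c-/- PGCLCs, 3.49 and 2.84 in control PGCLCs and 2.67 to 2.80 in the ESCs. Of these 7, Col3a1, Dcn, Lum, Thy1 and Postn were under 4 on every array, while the collagen gene Col1a1 was 5.27 and 4.30 in Tfap2c-/- PGCLCs, 5.06 and 3.13 in control PGCLCs and 2.83 to 3.13 in the ESCs. The osteoblast cadherin Cdh11, chosen after its values were seen, was 5.73 and 2.57 in Tfap2c-/- PGCLCs and 6.25 and 2.80 in control PGCLCs, against 1.89 to 2.08 in the ESCs. The keratin Krt8, an epithelial gene also chosen after its values were seen, followed the same order. It was 8.70 and 7.49 in Tfap2c-/- PGCLCs and 8.43 and 6.94 in control PGCLCs, against 5.57 to 6.05 in the ESCs. The 31 measured epithelial genes averaged 6.75 and 6.32 in Tfap2c-/- PGCLCs and 6.78 and 6.72 in control PGCLCs, against 5.49 to 6.31 in the ESCs. Cdh1, also on that list, was higher in the samples numbered 2 of both PGCLC genotypes. The 5 mesoderm markers averaged 4.15 to 4.33 in the PGCLCs and 4.12 to 4.25 in the ESCs. The 5 endoderm markers averaged 3.41 and 3.15 in Tfap2c-/- PGCLCs, 3.42 and 2.97 in control PGCLCs and 3.09 to 3.22 in the ESCs. Their samples numbered 1 were thus also the higher in both PGCLC genotypes. Of these 5, Sox17, Foxa2, Gata4 and Afp were under 4 on every array. The part that other cells among the sorted PGCLCs, or the cell line, had in the gap between samples 1 and 2 was not tested.

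**Figure D2:**
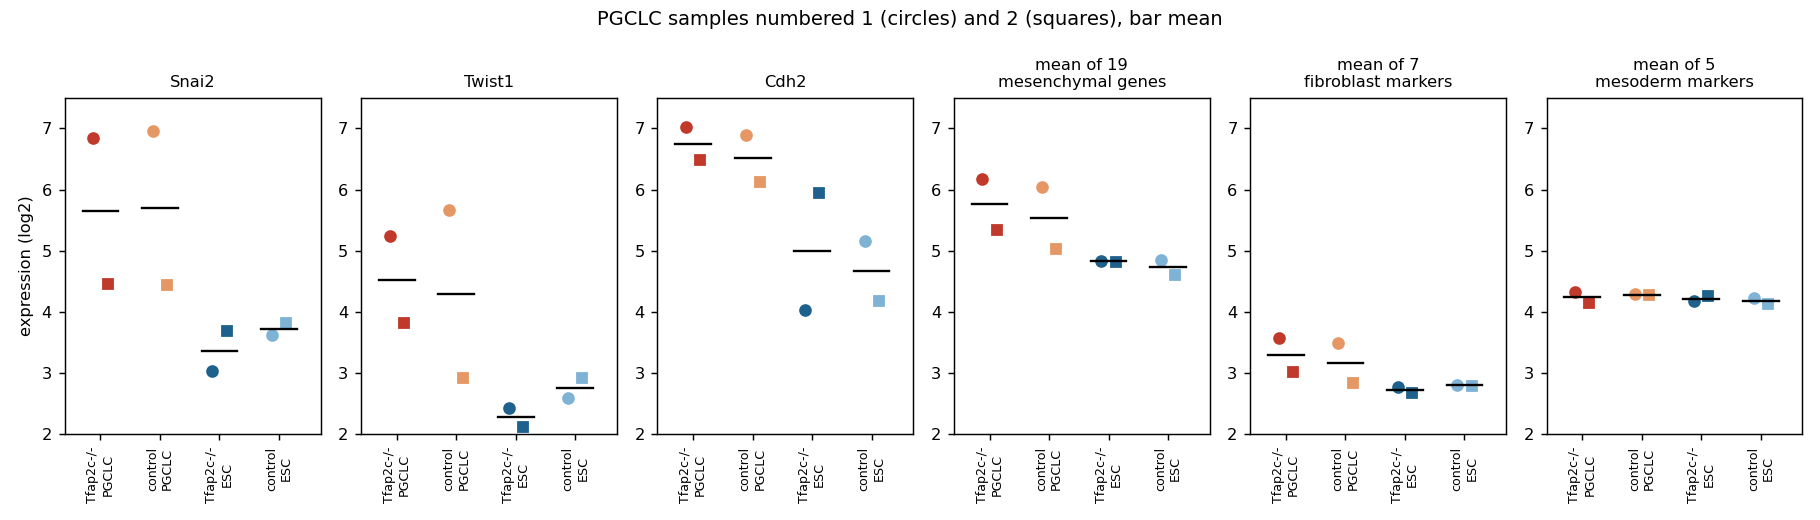
Expression (log2) of Snai2, Twist1 and Cdh2 and the mean expression of 3 gene lists on the 8 arrays, with 1 vertical scale for all panels. Circles are samples numbered 1, squares samples numbered 2 and bars group means. In both PGCLC genotypes sample 1 lies above sample 2 for Snai2, Twist1, Cdh2, the mesenchymal genes and the fibroblast markers, while the mesoderm markers stay between 4.12 and 4.33.

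Zeb1, a zinc finger and homeodomain repressor of Cdh1, was 6.19 and 6.29 in Tfap2c-/- PGCLCs and 6.23 and 5.70 in control PGCLCs on the probe set 1418926_at, while Tfap2c-/- ESCs had 5.73 and 5.33, against 5.53 and 5.79 in control ESCs. Both Tfap2c-/- PGCLC samples lay above all ESC samples, and control PGCLC sample 2 lay among the ESCs. The knockout difference in PGCLCs was 0.28 (95% confidence interval -0.27 to 0.83), and Tfap2c-/- PGCLCs exceeded Tfap2c-/- ESCs by 0.71 (SE 0.24, adjusted p = 0.173, limma). The other 3 probe sets of Zeb1 ran between 1.69 and 3.86. Zeb2, its close relative, gave 1.35 to 3.35 on all 5 probe sets and 8 arrays, which is below the median of every array. On its brightest probe set 1458941_at the group means spanned 0.25, and no difference between groups can be read from values this low.

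Ncam1 and Jam2, both of the immunoglobulin superfamily, had higher values in Tfap2c-/- than in control PGCLCs. Ncam1, which encodes a homophilic adhesion molecule of neural and other embryonic cells, was 5.44 and 6.36 in Tfap2c-/- PGCLCs and 4.68 and 4.13 in control PGCLCs on its brightest probe set 1426864_a_at. It was 6.18 and 6.42 in Tfap2c-/- ESCs and 5.70 and 5.68 in control ESCs. In each cell type both knockout samples lay above both controls. The PGCLC means were 5.90 ± 0.66 with the knockout and 4.41 ± 0.39 in controls (SD, n = 2 each), a log2 difference of 1.5 (SE 0.32, 95% confidence interval 0.75 to 2.24) that just missed the threshold (adjusted p = 0.0554, limma). It passed without Tfap2c-/- PGCLC sample 1 (difference 1.96, adjusted p = 0.0382), and when dim genes were left out (adjusted p = 0.0416). Without control PGCLC sample 2 it was 1.22 (adjusted p = 0.338).

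The probe sets of Ncam1 did not all show this difference. On 1426865_a_at Tfap2c-/- PGCLCs had 4.87 and 6.07 and control PGCLCs 3.6 and 2.49, a difference of 2.42 (SE 0.45) that passed among all probe sets (adjusted p = 0.0412, limma), where 2.01% were called. The values in ESCs were 5.68 and 5.72 with the knockout and 4.82 and 5.04 in controls. On 1439556_at Tfap2c-/- PGCLCs had 2.34 and 3.69 and control PGCLCs 1.88 and 1.94, a difference of 1.11 (SE 0.36, adjusted p = 0.208, limma), and Tfap2c-/- ESCs had 2.10 and 2.10 against 1.79 and 1.72 in control ESCs. These 3 probe sets thus ranked the knockout samples above the controls in both cell types. On 1439556_at, however, all values except that of Tfap2c-/- PGCLC sample 2 were below the median of every array. No difference between the ESC genotypes can be read from values this low. The other 4 probe sets gave 1.86 to 3.35 on all arrays, with overlap between the PGCLC genotypes. The call of 1426865_a_at was lost without control PGCLC sample 2 (difference 1.87, adjusted p = 0.266), without Tfap2c-/- PGCLC sample 2 (1.83, adjusted p = 0.225) and without any 1 of the 4 ESC arrays (adjusted p from 0.0596 to 0.0848).

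In ESCs the knockout difference of Ncam1 was 0.61 (95% confidence interval -0.14 to 1.36) on its brightest probe set and did not pass (adjusted p = 1, limma). The difference between the effects in the cell types was 0.89 (SE 0.46, adjusted p = 0.656, limma). Control PGCLCs lay below control ESCs by 1.29 on 1426864_a_at (difference -1.29, SE 0.32, adjusted p = 0.0510, limma), which did not pass. On 1426865_a_at the difference was -1.89 (SE 0.45, adjusted p = 0.0479 over all probe sets, limma), where 6.65% of all probe sets were called. On the dim 1439556_at the order was turned, with 1.88 and 1.94 in control PGCLCs against 1.79 and 1.72 in control ESCs. The remaining probe sets overlapped. Tfap2c-/- PGCLCs differed from Tfap2c-/- ESCs by -0.40 on 1426864_a_at (95% confidence interval -1.15 to 0.35), and their samples overlapped. The 12 measured genes of neural cell adhesion and polysialylation, Ncam1 among them, held no call in any of the 5 comparisons. These comparisons called 0% to 8.37% of all genes. Of the 12 genes, 8 were under 4 on every array, St8sia4 among them, an enzyme that adds polysialic acid to NCAM.

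**Figure D3:**
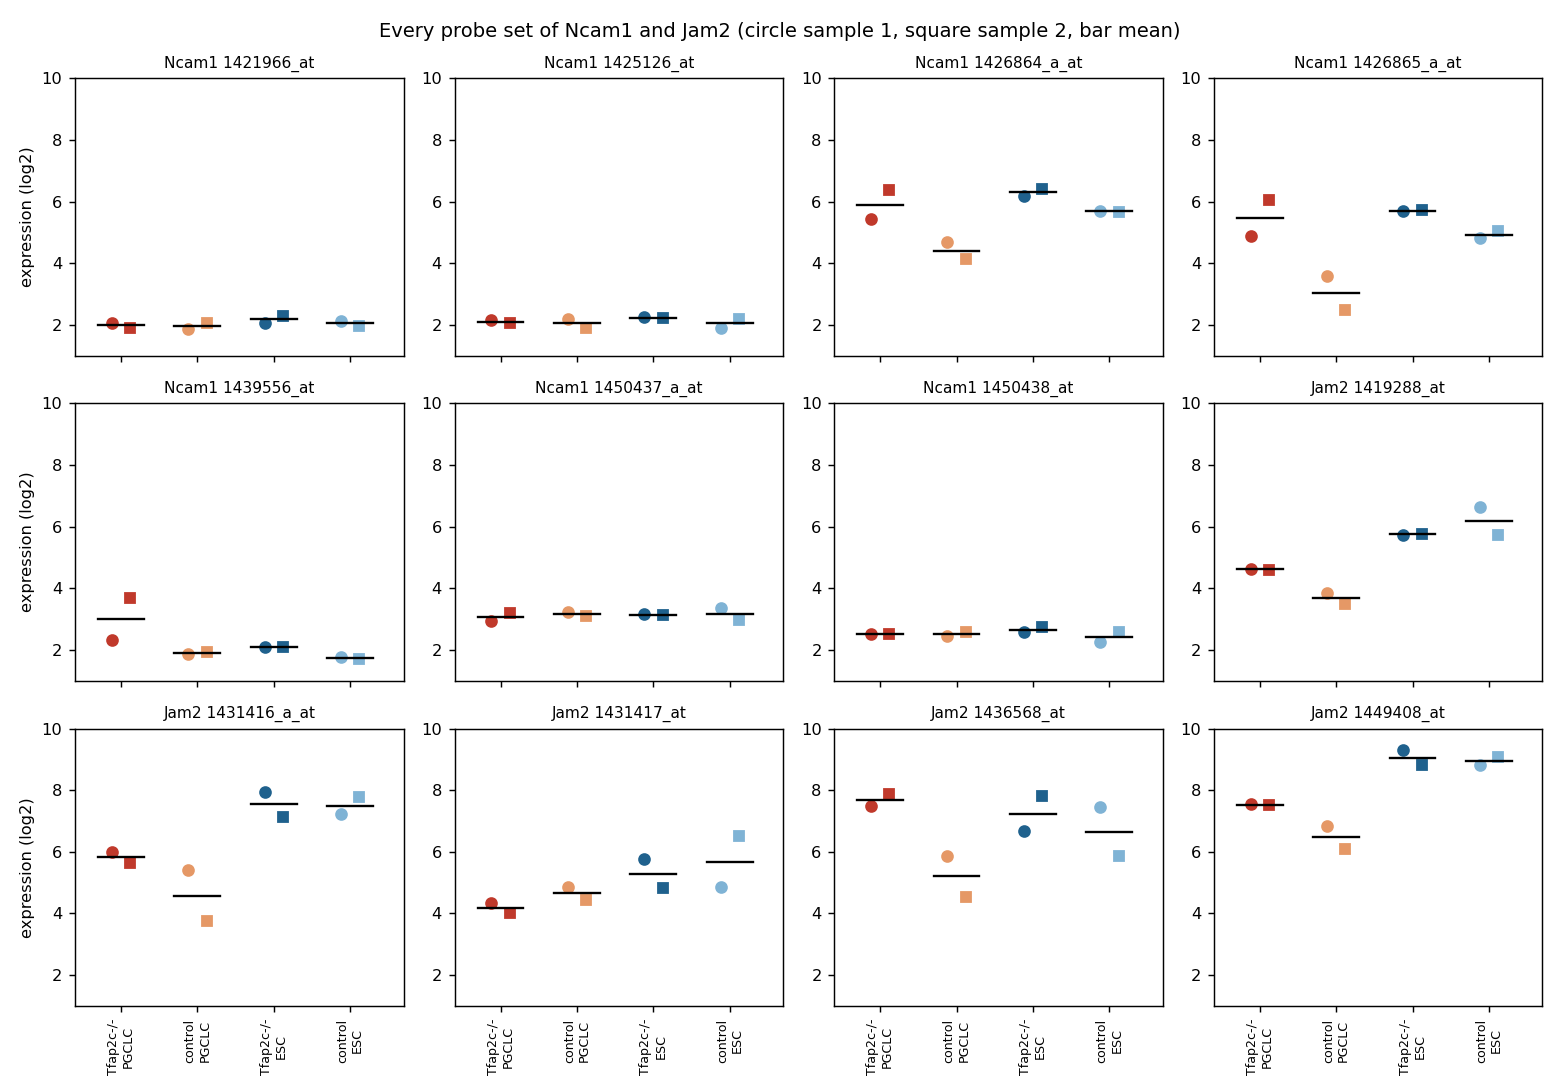
Expression (log2) on the 8 arrays for all 7 probe sets of Ncam1 and all 5 of Jam2, with 1 vertical scale for all panels. Circles are samples numbered 1, squares samples numbered 2 and bars group means. Tfap2c-/- PGCLCs lie above control PGCLCs on 3 probe sets of Ncam1 and 4 of Jam2, and below them on 1431417_at of Jam2.

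Jam2, which encodes the junctional adhesion molecule JAM-B, had the largest difference between control PGCLCs and control ESCs among the 10 genes. On its brightest probe set 1449408_at it was 7.54 and 7.53 in Tfap2c-/- PGCLCs, 6.85 and 6.10 in control PGCLCs, 9.30 and 8.81 in Tfap2c-/- ESCs and 8.83 and 9.07 in control ESCs. All PGCLC samples lay below all ESC samples, and both Tfap2c-/- PGCLC samples lay above both controls. The difference between control PGCLCs and control ESCs was -2.48 (SE 0.26, 95% confidence interval -3.09 to -1.87, adjusted p = 0.00322, limma), and it was called under all 17 settings tried, at -2.85 to -2.11 with single arrays left out. Between Tfap2c-/- PGCLCs and Tfap2c-/- ESCs it was -1.52 (SE 0.26, adjusted p = 0.0337, limma), where 2.32% of all genes were called, 0.973% as lower. That call was lost without any 1 of the 4 knockout arrays or the 2 control ESC arrays (adjusted p from 0.0604 to 0.152) with only the 4 knockout arrays in the fit (adjusted p = 0.0749), and with the probe sets averaged (-1.01, adjusted p = 0.120).

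The knockout difference of Jam2 in PGCLCs was 1.06 (SE 0.26, 95% confidence interval 0.45 to 1.67) and did not pass (adjusted p = 0.0848, limma). It passed without control PGCLC sample 1 (1.43, adjusted p = 0.0428) and was 0.69 without control PGCLC sample 2 (adjusted p = 0.411). Samples of the same number differed by 0.70 and 1.42. On 1419288_at Tfap2c-/- PGCLCs had 4.64 and 4.60 against 3.87 and 3.5 in control PGCLCs, on 1431416_a_at 6.0 and 5.64 against 5.40 and 3.75, and on 1436568_at 7.49 and 7.88 against 5.88 and 4.53. These 3 probe sets ranked the PGCLC samples as the brightest did, with differences of 0.94, 1.24 and 2.48, none of which passed. On 1431417_at the order was turned, with 4.33 and 4.02 in Tfap2c-/- PGCLCs and 4.87 and 4.44 in control PGCLCs. The difference of Jam2 between cell types was called among all probe sets on 1449408_at, 1419288_at (-2.50, adjusted p = 0.00501) and 1431416_a_at (-2.92, adjusted p = 0.0187). On 1436568_at the cell types overlapped in both genotypes, and the ESC samples had 6.67 and 7.82 with the knockout and 7.45 and 5.86 in controls. In ESCs the knockout difference of Jam2 was 0.10 (95% confidence interval -0.52 to 0.71), and the difference between the effects in the cell types was 0.96 (SE 0.37, adjusted p = 0.499, limma).

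Over the 10 genes, 4 had both Tfap2c-/- PGCLC samples above both controls, namely Cdh1, Vim, Ncam1 and Jam2, and none had both below. Over all genes 19.5% had both above and 27.9% both below. The 10 genes were chosen with earlier results of these data known, and the paper lists Ncam1 and Jam2 as upregulated. The shares and medians here thus do not describe an unselected set. The median knockout difference in PGCLCs was 0.26 over the 10 genes and -0.04 over all genes, with 7 of the 10 at a positive and 3 at a negative value. An unadjusted p under 0.05 was reached by 2861 of all 18193 genes, among them Cdh1, Ncam1 and Jam2 (limma). In ESCs the median was 0.08, and none of the 10 genes was called or had an unadjusted p under 0.05 (limma). Among all genes in ESCs 0% were called and 455 had an unadjusted p under 0.05. There Ncam1 and Zeb2 had both knockout samples above both controls and Twist1 had both below, against 11.8% and 11% of all genes. For Zeb2, whose values were too low to compare groups, the closest samples differed only in the fourth decimal. The test of the difference between cell types called 0.148% of all genes and none of the 10. In that test 1639 of all 18193 genes had an unadjusted p under 0.05, among them Cdh1 and Jam2 (limma).

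**Figure D4:**
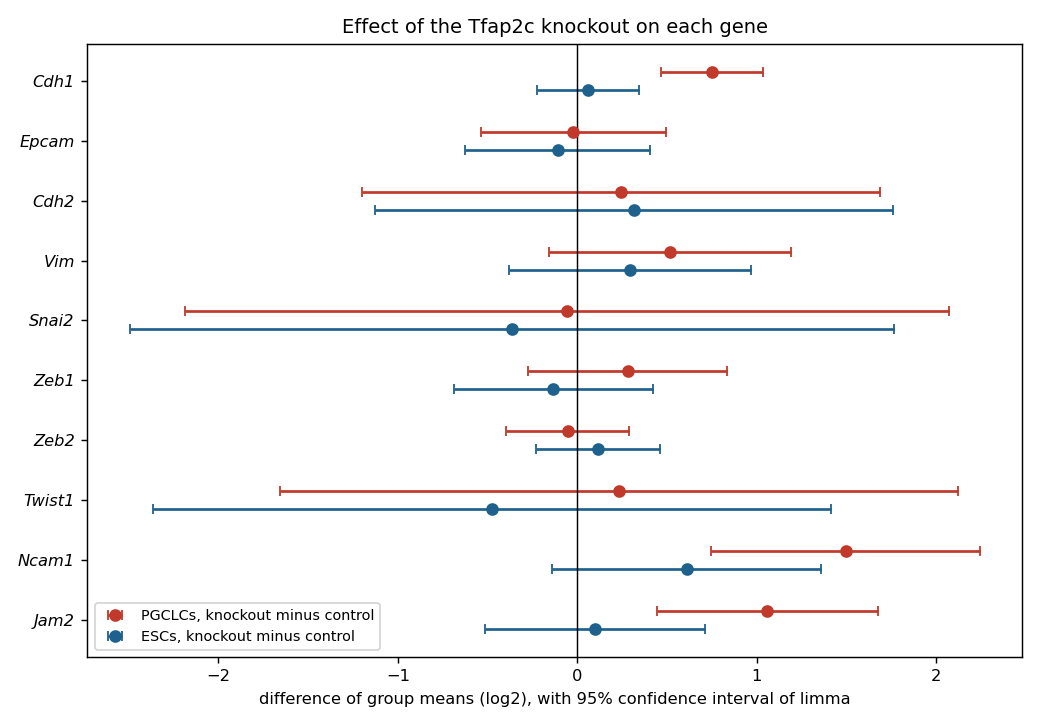
Difference of group means (log2) between Tfap2c-/- and control samples for each gene, with PGCLCs in red above ESCs in blue, and lines for the 95% confidence interval of limma. The interval in PGCLCs lies above 0 for Cdh1, Ncam1 and Jam2, of which only Cdh1 passed after adjustment over all genes, and the intervals of Snai2, Twist1 and Cdh2 span more than 2 units.

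Between control PGCLCs and control ESCs, Cdh1 and Jam2 were called lower and none of the 10 genes was called higher. Of all genes 3.72% were called lower and 4.64% higher. Both control PGCLC samples lay above both control ESC samples for Epcam, Cdh2, Snai2 and Twist1 and below them for Cdh1, Vim, Ncam1 and Jam2, so 4 of 10 were above and 4 below, against 25.3% and 28.5% of all genes. For Twist1 the closest samples differed only in the fifth digit. In the comparison of Tfap2c-/- PGCLCs with Tfap2c-/- ESCs, Jam2 was called lower and none was called higher. Of all genes 0.973% were called lower and 1.35% higher. There Epcam, Cdh2, Snai2, Zeb1 and Twist1 lay above without overlap and Cdh1, Vim, Jam2 and the low values of Zeb2 below, against 18.5% and 29.5% of all genes. These 2 comparisons share no sample.

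For the gene lists below, 3.09% of all genes were called between the PGCLC genotypes and 8.37% between the control cell types. Between the knockout cell types it was 2.32%, and no list was tested as a set. Of 14 measured genes of the adherens junction, where catenins and other partners bind E-cadherin, 2 were called higher in Tfap2c-/- PGCLCs. These were Cdh1 and Jup, the gene of plakoglobin, and none was called lower. Jup was 6.81 and 7.10 in Tfap2c-/- PGCLCs and 5.92 and 5.78 in control PGCLCs, a difference of 1.11 (SE 0.22, adjusted p = 0.0389, limma). The other 12 did not pass. Of the 14 genes 7 had a positive and 7 a negative difference, with a median of -0.01. Beta-catenin (Ctnnb1), which links cadherins to alpha-catenin, was 11.69 and 11.74 in Tfap2c-/- PGCLCs and 11.60 and 11.52 in control PGCLCs and did not pass. Against control ESCs, control PGCLCs had more Cdh3 (P-cadherin) and Afdn (afadin, which ties junctions to actin) and less Cdh1. Cdh3 was 6.46 and 6.30 in control PGCLCs against 4.18 and 4.45 in control ESCs, a difference of 2.06 (SE 0.26, adjusted p = 0.00553, limma). In Tfap2c-/- PGCLCs it was 4.95 and 5.64, below both control PGCLC samples, with a difference of -1.08 that did not pass (adjusted p = 0.0771, limma).

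Of 31 measured epithelial genes only Cdh1 was called between the PGCLC genotypes, against 3.09% of all genes, and the median was -0.14. Between control PGCLCs and control ESCs 24 of the 31 were higher and 7 lower, with a median of 0.78 against -0.03 over all genes. There 4.64% of all genes were called higher and 3.72% lower. Called higher were Esrp1 and Esrp2, which direct epithelial splicing, the grainyhead factor Grhl3, F11r (JAM-A) and the tight junction gene Tjp1, and called lower were Cdh1 and the protease inhibitor gene Spint1. Esrp1 was 8.95 and 9.45 in control PGCLCs against 5.87 and 6.66 in control ESCs, a difference of 2.94 (SE 0.32, adjusted p = 0.00337, limma). In Tfap2c-/- PGCLCs it was 7.78 and 7.72, below both control PGCLC samples (difference -1.45, adjusted p = 0.0574, limma). Tfap2c-/- PGCLCs exceeded Tfap2c-/- ESCs in Tjp1, Esrp1 and Grhl2, the last of which encodes a factor that activates Cdh1 (1.76, SE 0.25, adjusted p = 0.0177, limma). The direction of Cdh1 in control PGCLCs was thus opposite to that of most epithelial genes measured.

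Of 13 measured EMT transcription factors, 1 was called between the PGCLC genotypes, against 3.09% of all genes. Tcf3, which encodes the E2A proteins that dimerise with Twist1, fell by 0.79 (SE 0.16, adjusted p = 0.0400, limma), at 7.74 and 7.64 in Tfap2c-/- PGCLCs and 8.41 and 8.56 in control PGCLCs. Control PGCLCs exceeded control ESCs in Tcf3 by 0.99 (adjusted p = 0.0109, limma), and were also called higher in Foxc2, whose values of 1.71 to 2.92 were below the median of every array. Snai1, the best known repressor of Cdh1, was 2.15 to 2.91 on all arrays, also below every median. Of 19 mesenchymal genes only Itgb3 (integrin beta-3) was called between the PGCLC genotypes, against the same 3.09%. It was 2.41 and 2.83 in Tfap2c-/- PGCLCs and 4.21 and 4.96 in control PGCLCs, a difference of -1.97 (SE 0.27, adjusted p = 0.0132, limma). The median of the mesenchymal genes was 0.24 between the PGCLC genotypes and 0.96 between control PGCLCs and control ESCs, where Itgb3 (2.33) and the smooth muscle gene Tagln (1.68) were called higher. The mean of this list was higher in the samples numbered 1 of both PGCLC genotypes, while Itgb3 was higher in those numbered 2.

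Among all genes 3.09% were called between the PGCLC genotypes. Of 14 genes of the JAM, nectin and related adhesion family, Pecam1, an endothelial and germ cell adhesion gene, was the only call there. It was 4.22 and 4.32 in Tfap2c-/- PGCLCs and 5.90 and 5.65 in control PGCLCs, a difference of -1.50 (SE 0.22, adjusted p = 0.0158, limma), opposite in direction to Jam2. Between control PGCLCs and control ESCs, F11r (1.08) and Esam (1.36) were called higher and Jam2 and Cxadr (-2.38), the gene of the coxsackie and adenovirus receptor, lower. Jam3, the gene of JAM-C, to which JAM-B binds, was 5.38 and 4.77 in Tfap2c-/- PGCLCs, 5.38 and 4.72 in control PGCLCs, 6.39 and 7.43 in Tfap2c-/- ESCs and 6.62 and 6.05 in control ESCs. It ranked the cell types as Jam2 did, without a call.

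TGF-beta is a known inducer of EMT, and of its 16 pathway genes 1 was called between the PGCLC genotypes, against 3.09% of all genes. Tgif1, a corepressor of Smad proteins, was 8.78 and 8.88 in Tfap2c-/- PGCLCs and 7.72 and 7.01 in control PGCLCs, a difference of 1.47 (SE 0.22, adjusted p = 0.0166, limma). The ESC samples had 8.26 to 8.46, and control PGCLCs were below control ESCs by 1.09 (difference -1.09, adjusted p = 0.0258, limma). In Tfap2c-/- PGCLCs against Tfap2c-/- ESCs, Smad7 (0.78) and Skil (1.53), both inhibitors of the pathway, were called higher. None of these lists held a call between the ESC genotypes or in the test of the difference between cell types. Of all genes 0% and 0.148% were called there. With single arrays left out, each of these lists held 0 to 2 calls between the PGCLC genotypes, and between control PGCLCs and control ESCs the epithelial list held 2 to 7, the adhesion family of the JAMs 2 to 5, the adherens junction list 1 to 4, the mesenchymal list 1 to 3, the EMT factors 0 to 2 and the TGF-beta list 0 to 5. Between Tfap2c-/- PGCLCs and Tfap2c-/- ESCs it was 0 to 2 for the epithelial list, which held 3 with all arrays, and 0 to 1 for the TGF-beta list, which held 2.

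**Figure D5:**
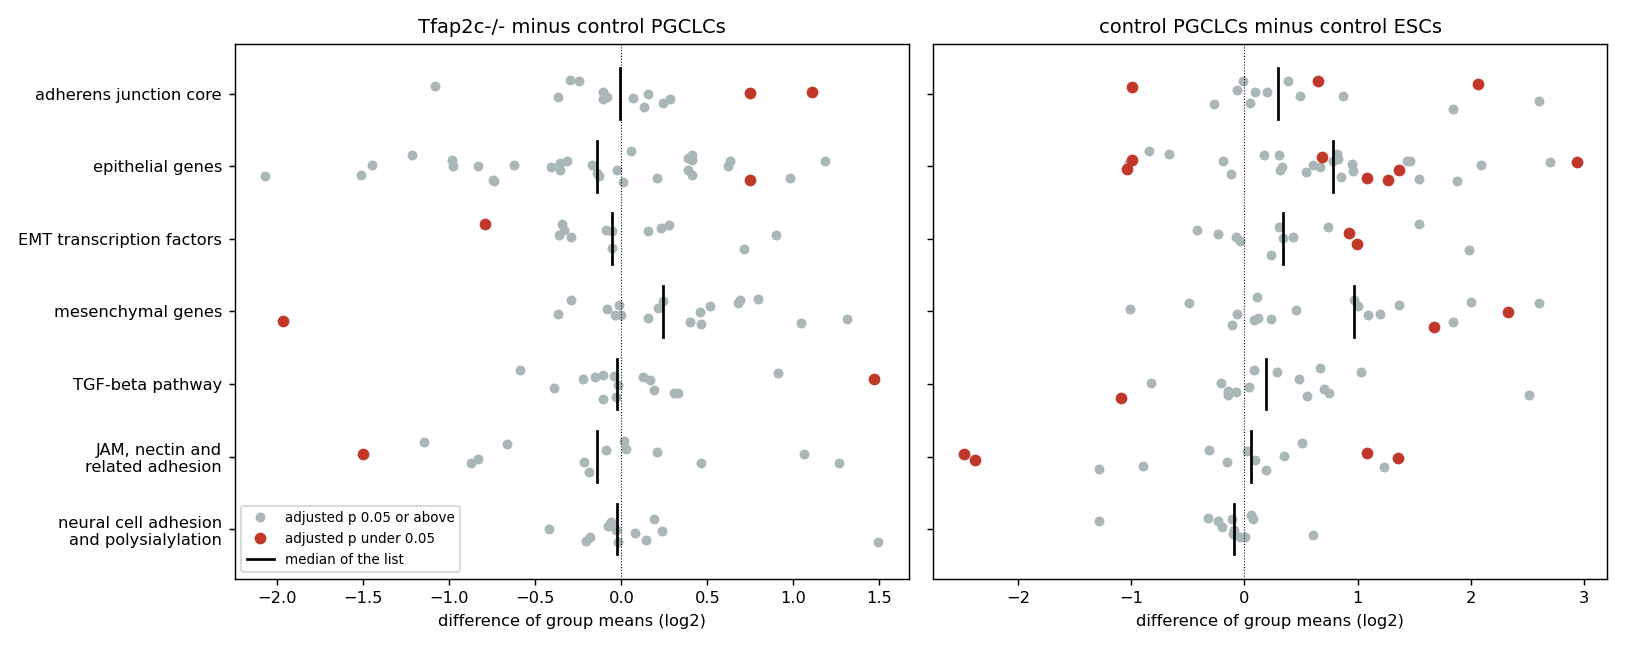
Difference of group means (log2) for each measured gene of 7 lists, between Tfap2c-/- and control PGCLCs on the left and between control PGCLCs and control ESCs on the right. Points are genes, red where the adjusted p was under 0.05, and black bars are list medians. On the left the medians lie between -0.14 and 0.24, and on the right those of the epithelial and mesenchymal genes are the highest, at 0.78 and 0.96.

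The genes whose pattern over the 8 arrays was most like that of a member were named where its group means spanned at least 1 unit, by Pearson correlation among the other genes with a group mean of at least 6. Closest to Cdh1 were Yes1 (r = 0.993), Slc25a36 (0.991) and Wdr74 (0.988), and closest to Jam2 were Nipsnap1 (0.995), AI467606 (0.992) and Sdc2 (0.991). For Ncam1 they were Kbtbd11, Gpalpp1 and Pptc7 (0.979 to 0.982), and for Vim Jag1, B230307C23Rik and Angptl4 (0.973 to 0.990). For Cdh2 they were Arid3b, Eif5a and Mapre1 (0.975 to 0.984). For Snai2 they were Foxo4, Bambi and Tax1bp3 (0.975 to 0.978), and for Twist1 Dennd2a, Mmp2 and Zfp362 (0.979 to 0.983). Mmp2, a matrix metalloproteinase of mesenchymal cells, was 6.72 and 5.67 in Tfap2c-/- PGCLCs and 6.50 and 4.98 in control PGCLCs, against 4.56 to 4.95 in the ESCs. The coefficients are a description of 8 arrays that share 4 groups, and for each gene the 3 highest out of 7509 or 7510 candidates are given.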

How the data were processed

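Total RNA of 8 samples in 4 groups of 2 was hybridised to Affymetrix mouse arrays. The authors normalized the arrays before deposit and the deposited values are on the log2 scale. For this step RMA is given in the paper's methods, while GCRMA, with no version, stands in the processing notes of the submitters. The values were used as they stood. Of 45101 probe sets, 34945 name a single gene in the platform annotation and 932 name several, which were left out with 64 control probe sets. For a gene with several probe sets the brightest, by its average on all 8 arrays, was taken. A single limma model (version 3.58.1, R 4.3.3) estimated the mean of each of the 4 groups, with 4 residual and 3.67 prior degrees of freedom, eBayes with a trend and two-sided tests. Benjamini-Hochberg adjustment covered 18193 genes, or 34945 probe sets where a probe set is named. The procedure was tested on simulated data. The 10 genes and the lists were chosen with earlier results of these data known. Every probe set of the 10 genes is described. Up to 4 called genes per list and comparison, those with the largest change, were to be named, and all other genes named from the lists, and Tfap2c, were chosen after their values were seen. Some listed genes are not reported here. Other probe set rules, scalings, filters and fits and leaving out single arrays were tried. Their number, 2 per group, limits the precision. Lists described by marker are those of ESCs, PGCs, epiblast, mesoderm, endoderm, fibroblasts and neural cells.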

Additional observations from a re-analysis of the deposited data

How the results depend on the processing

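With single arrays left out, 87 to 609 genes were called between Tfap2c-/- and control PGCLCs, against 562 with all arrays, and 87 was the count without control PGCLC sample 2. The count was 0 to 1 between the ESC genotypes (0 with all arrays), 1 to 56 for the difference of the knockout effects between cell types (27), 325 to 1721 between control PGCLCs and control ESCs (1522), and 80 to 278 between Tfap2c-/- PGCLCs and Tfap2c-/- ESCs (422). The lowest of these were without control ESC sample 1 for the difference and for the control cell types, and without Tfap2c-/- PGCLC sample 1 for the knockout cell types. With only the arrays compared in the fit, 187 genes were called between the PGCLC genotypes and 56 between Tfap2c-/- PGCLCs and Tfap2c-/- ESCs. Testing every probe set gave 2324 calls between control PGCLCs and control ESCs. Between the PGCLC genotypes it gave 703, which is 2.01% of all probe sets. Of the 32 probe sets of the 10 genes, 2 were called between the PGCLC genotypes, 0 to 3 with single arrays left out, 1 without the variance trend, 1 with the replicate block and 0 with only the PGCLC arrays.

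The labels do not say what a replicate number stands for, and the numbers were not taken to pair the samples. The correlation of same-numbered deviations was 0.39 between the PGCLC genotypes and -0.33 between the ESC genotypes, and not every pair of groups was over 0.1. With the replicate block, 556 genes were called between the PGCLC genotypes, 0 between the ESC genotypes, 22 for the difference, 1571 between control PGCLCs and control ESCs and 454 between Tfap2c-/- PGCLCs and Tfap2c-/- ESCs. The block moved the probe set 1426865_a_at of Ncam1 to an adjusted p of 0.0528 (limma). Because the ESC correlation was -0.33, crossed pairs were also fitted, an alternative chosen after seeing the data, with 0 calls, as with straight pairs.

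Cdh1 between the PGCLC genotypes was called in 12 of 17 settings, Ncam1 in 2 and Jam2 in 1. With the probe sets of a gene averaged, some differences changed sign. That between the PGCLC genotypes became 0.095 for Epcam and 0.13 for Zeb2, that between the ESC genotypes 0.028 for Zeb1 and -0.018 for Jam2, and Zeb2 gave 0.044 for the difference of the effects, 0.17 between control PGCLCs and control ESCs and 0.22 between Tfap2c-/- PGCLCs and Tfap2c-/- ESCs. Another setting left out all probe sets marked by a name ending in _a_at, _s_at or _x_at. This removed 1426864_a_at and 1426865_a_at and left Ncam1 with dim probe sets. Ncam1 then gave -0.0064 between the PGCLC genotypes, -0.24 for the difference of the effects and 0.098 between control PGCLCs and control ESCs. For Snai2 the difference of the effects was -0.20 under this setting. With single arrays left out, the difference between Tfap2c-/- and control PGCLCs ran from -1.32 to 1.20 for Snai2, -0.14 to 0.63 for Cdh2, -0.13 to 0.025 for Zeb2, -1.15 to 1.61 for Twist1 and -0.18 to 0.14 for Epcam. That between Tfap2c-/- and control ESCs ran from -0.15 to 0.34 for Jam2, -0.43 to 0.21 for Epcam, -0.65 to 1.28 for Cdh2, -0.052 to 0.64 for Vim, -0.057 to 0.17 for Cdh1 and -0.34 to 0.069 for Zeb1. The difference of the effects ran from -0.12 to 0.57 for Vim, -0.24 to 0.41 for Epcam, -1.03 to 0.89 for Cdh2, -0.95 to 1.57 for Snai2 and -0.67 to 2.09 for Twist1. Zeb2 ran from -0.16 to 0.0038 between control PGCLCs and control ESCs, and Ncam1 from -0.86 to 0.065 between Tfap2c-/- PGCLCs and Tfap2c-/- ESCs. The cause was not tested, except that the averaged and the unmarked probe sets are other probe sets. With 2 arrays per group, single arrays weigh heavily, and the deposited values hold no detection call.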

Other observations

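The markers of the epiblast, the epithelium from which germ cells arise, held 1 call among 4 genes between the PGCLC genotypes, where 3.09% of all genes were called. Pou3f1, a POU factor of the epiblast, was 4.92 and 4.65 in Tfap2c-/- PGCLCs and 3.28 and 3.64 in control PGCLCs, a difference of 1.33 (SE 0.25, adjusted p = 0.0343, limma). Both knockout samples lay above both controls. The growth factor gene Fgf5 was 3.63 and 4.26 in control PGCLCs against 2.22 and 1.78 in control ESCs, a difference of 1.94 (SE 0.40, adjusted p = 0.0294, limma). Of 5 neural markers none was called between the PGCLC genotypes, and Pax6 was called between Tfap2c-/- PGCLCs and Tfap2c-/- ESCs (difference 1.87, SE 0.35, adjusted p = 0.0431, limma). With single arrays left out, each of these lists held 0 to 1 calls in the comparison where its call is given, so none of these calls held throughout.

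Tgfb2, the gene of a ligand that induces EMT, was chosen after its values were seen. It was 6.44 and 4.60 in Tfap2c-/- PGCLCs and 6.65 and 4.60 in control PGCLCs, against 2.79 and 3.52 in Tfap2c-/- ESCs and 3.24 and 2.99 in control ESCs. As with Snai2 and Twist1, the PGCLC samples numbered 1 were the highest in both genotypes, while the genotypes differed by -0.11 (SE 0.75, adjusted p = 0.977, limma). The cell line behind each sample number is not given in the labels.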
